A study of Zea mays with 6 samples.

Results

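The transcripts described here are 80 abundant nuclear transcripts of drought-stressed maize leaves that had nearly the same FPKM in transgenic and control plants. FPKM is a level per gene length, the fragments of a gene corrected for its length and for the size of the library. The transcripts were chosen by their FPKM in these same libraries. A nuclear feature was taken when it had at least 100 FPKM in each of 6 libraries and when its mean FPKM in the transgenic libraries, divided by its mean in the control libraries, lay between 0.909 and 1.1. Of 33702 nuclear features, 823 reached that level in every library, not counting 5 IDs that the rule leaves out by name, and 80 of these (9.72%) met the ratio as well. A sixth ID left out by name was below 100 FPKM in at least 1 library. None of the 5 lay within the ratio limits, so leaving them out removed no transcript from the 80. Because measured values chose these transcripts, their equality in FPKM is a property of the choice and no test of it is given.

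RNA was sequenced from leaves of the maize inbred line KN5585. The 3 transgenic libraries came from plants of the genotype labelled transgenic, which carry a heterologous synthesis of poly-γ-glutamic acid, and the 3 control libraries from plants of the genotype labelled control. All 6 carried the same stress, since watering of the seedlings stopped at the 3-leaf stage and leaves were taken 5 days later, at a soil water content of 9.8%. The labels give neither the promoter, the number of transgenic lines nor whether the libraries of a genotype came from separate plants, so the spread between libraries could be technical. Well-watered plants were not analysed here. "Equal" therefore means equal between 2 genotypes that were both under drought, and says nothing of how these transcripts behave when water is withheld.

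Poly-γ-glutamic acid is a polymer of glutamate that some Bacillus species secrete, and it binds water strongly. In a leaf that runs short of water, stomata close, photosynthesis is held back, and many transcripts change in level. Transcripts that keep their level between samples are used in plant work as internal references, against which the levels of other genes are expressed. FPKM is itself a relative measure, because the fragments of a library are divided among all its transcripts, so that a transcript holding a constant number of molecules gains FPKM when other abundant transcripts decline.

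The files do not pair the nuclear IDs with gene names, and 0 of 33702 nuclear IDs, the 80 among them, had an entry in the RefSeq gene table (Zm-B73-REFERENCE-NAM-5.0). The transcripts are therefore given by ID, with no product, position or sequence, and the nuclear markers of mesophyll and bundle sheath cells could not be looked up to check the tissue. FPKM summed to between 1226614 and 1238707 in the transgenic and between 1208094 and 1226198 in the control libraries. Depth relative to control replicate 1, estimated from the steps between low values, was 0.961 to 0.994 in the transgenic and 0.999 to 1.03 in the control libraries, a span of 1.07-fold, and the absolute depth is unknown. The estimate searched only depths near that of control replicate 1, so a larger difference in depth could not have been found. Plastid features held 0.496 to 0.570% of FPKM in transgenic and 0.193 to 0.221% in control libraries, all made with an mRNA kit.

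The equality depends on how the libraries are scaled. With FPKM as deposited, the 80 transcripts had a median ratio of 1.01. Median-of-ratios scaling, which sets the typical feature and not the library total equal between libraries, raised all transgenic values by 1.31-fold (0.39 on the log2 scale) against control values. The 80 transcripts then had a median ratio of 1.33, with a lowest of 1.2 and a highest of 1.44, and 0 of them remained within the limits. Under that scaling 115 other transcripts met the same rule, with none in common with the 80. With quantile normalization 81 transcripts met the rule, 40 of them shared, which is 50% of the deposited list and 49.4% of the other. With every library scaled to a total of 1000000, 61 met the rule and 59 of them were shared (73.8% of the deposited list and 96.7% of the other). No transcript met the rule under all 4 scalings. The median log2 difference of all tested features was -0.31 with deposited FPKM (22200 features), 0.04 after median-of-ratios scaling (22134) and -0.08 after quantile normalization (22182). That of the 80 transcripts was 0.02 as deposited, 0.41 after median-of-ratios scaling and 0.10 after quantile normalization. The values below are FPKM as deposited unless another scaling is named.

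**Figure D1:**
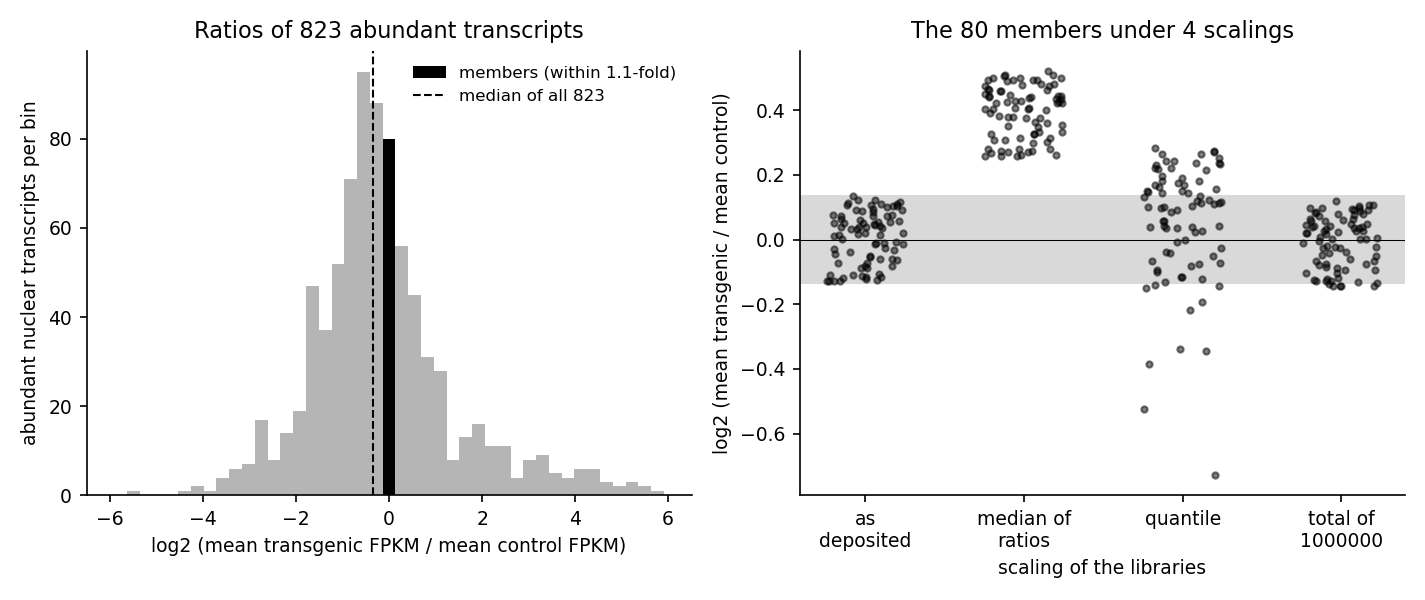
Left, number of abundant nuclear transcripts (823 in all) by the log2 ratio of mean transgenic to mean control FPKM, in bins as wide as the limits of the rule, with the 80 chosen ones in black and the median of -0.34 as a dashed line. Right, the log2 ratio of each of the 80 under 4 scalings, where the grey band marks the limits; all 80 points lie above the band with median-of-ratios scaling.

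Among abundant transcripts, a ratio near 1 marked no peak in the distribution. The 823 had a median log2 ratio of -0.34. In windows of the same log2 width, 80 transcripts lay around a ratio of 1, against 88 around 0.826, 95 around 0.683 and 71 around 0.564 on the lower side. On the upper side 56 lay around 1.21 and 45 around 1.46. The fullest of these windows was thus the one around 0.683. Beyond the limits, 88 abundant transcripts were higher in transgenic leaves by up to 1.5-fold and 148 were lower by up to 1.5-fold. From 1.5 to 2-fold, 48 were higher and 113 lower, and from 2 to 4-fold, 57 were higher and 145 lower. By more than 4-fold, 80 were higher and 64 were lower. The 80 chosen transcripts form a slice of a continuous spread of ratios and not a separate group.

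The share of ratios within the limits was counted by level, with no test between the classes. Of nuclear features with a mean of 10 to 100 FPKM over the 6 libraries, 862 of 10829 (7.96%) lay within the limits, and of those with 1 to 10 FPKM 667 of 9371 (7.12%). The share was 5.92% (59 of 997) from 100 to 200 FPKM, 4.97% (28 of 563) from 200 to 500, 3.91% (7 of 179) from 500 to 1000, and 1.46% (2 of 137) at 1000 FPKM or more. In all, 96 of 1876 nuclear features with a mean of at least 100 FPKM lay within the limits, and the 80 are those whose lowest library reached 100 FPKM too.

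Within the limits, 46 of the 80 transcripts had a ratio above 1 and 34 below 1, and 39 lay within 0.07 of equality on the log2 scale. The mean level over 6 libraries ran between 108 and 1668 FPKM with a median of 189 FPKM, where the other 743 abundant transcripts had a median of 289 FPKM and reached 31370 FPKM. The minimum of 100 FPKM acts on the lower genotype, so a transcript with unequal genotypes needs a higher mean to reach it. The difference between these medians is therefore set in part by the rule, and nothing is read from it. Of the 80, 43 had a mean under 200 FPKM, 28 a mean of 200 to 500, 7 a mean of 500 to 1000, and 2 a mean above 1000. Together they held 1.83 to 1.84% of FPKM in the transgenic and 1.85 to 1.87% in the control libraries, while all 823 abundant transcripts held 43.6 to 44.7% in the transgenic and 44.4 to 45.3% in the control libraries.

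**Figure D2:**
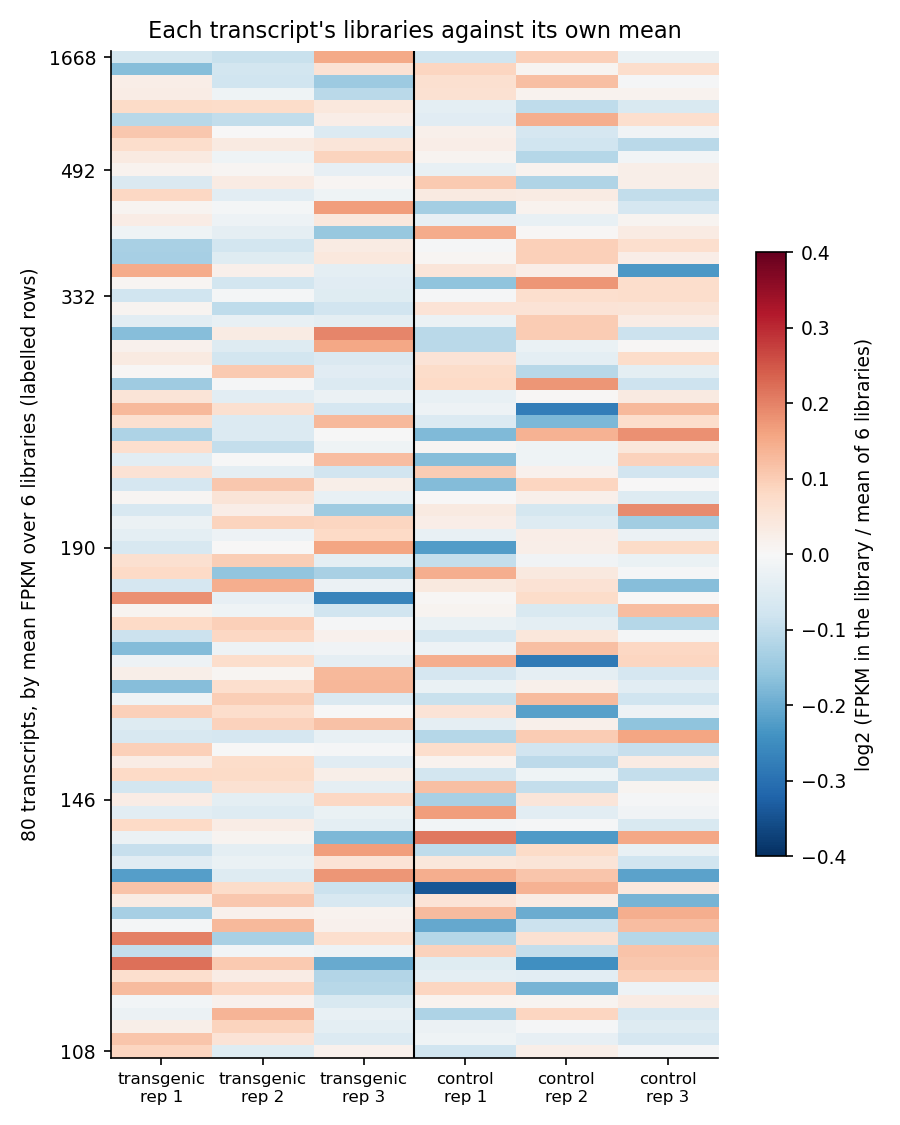
Each row is 1 of the 80 transcripts, ordered by mean FPKM with the highest at the top, and each column 1 library. Colour gives the log2 ratio of the library's FPKM to the transcript's mean over 6 libraries; no column is red or blue throughout, and most of the deepest colours stand in the lower part, among the less abundant transcripts.

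The most abundant of the 80 was Zm00001d027332. It had 1589, 1567 and 1853 FPKM in transgenic leaves, against 1578, 1784 and 1636 FPKM in control leaves. The groups overlapped, transgenic replicate 3 was the highest library, and the means of 1670 ± 159.6 and 1666 ± 106 FPKM (SD, n = 3 each) gave a ratio of 1.002. The next, Zm00001d023529, had 1034, 1104 and 1211 FPKM in transgenic and 1233, 1173 and 1221 FPKM in control leaves. Its control libraries lay close together, with an SD of 31.7 FPKM, while its transgenic libraries spread more widely, with an SD of 88.9 FPKM.

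Zm00001d028709 had 946, 879 and 839 FPKM in transgenic against 970, 1010 and 926 FPKM in control leaves, with transgenic replicate 1 inside the range of the control libraries. Zm00001d034644 had 905, 877 and 823 FPKM in transgenic and 926, 896 and 897 FPKM in control leaves, again with overlap. Zm00001d037228 had 635, 641 and 699 FPKM in transgenic and 665, 760 and 719 FPKM in control leaves. In these 3 transcripts and in Zm00001d023529 the transgenic mean was the lower one, with ratios between 0.917 and 0.959.

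Zm00001d036371 stood apart from the other 5 of these 6 transcripts, because its libraries were tight enough to separate the genotypes. It had 855, 853 and 835 FPKM in transgenic leaves and 788, 755 and 776 FPKM in control leaves. Every transgenic library was above every control library, and the ratio of 1.097 was the highest of the 80. It was also the transcript with the smallest spread, with a coefficient of variation (CV, the SD as a percentage of the mean) of 1.32% in transgenic and 2.18% in control leaves. In the comparison of the genotypes over all tested features it was the 1 of the 80 that passed (log2 difference 0.13, limma, Benjamini-Hochberg adjusted p = 0.0166, higher in 3 of 3 libraries). That call ended when the variance trend was left out (adjusted p = 0.195) and without transgenic replicate 2 or control replicate 2 (limma, adjusted p = 0.0625 for each). Its adjusted p ran between 4.63e-06 and 0.195 over all settings. After quantile normalization the difference turned to -0.11 (limma, adjusted p = 0.0611).

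Of all 22200 tested features, 16195 or 73.0% passed in that comparison, 5996 (27.0%) higher and 10199 (45.9%) lower in transgenic leaves, and of the 823 abundant transcripts 726 or 88.2% passed. Since the rule chose transcripts by the same ratio, the count of 1 in 80 follows from the choice and nothing is read from it. Likewise the libraries of the genotypes did not overlap for 9 of the 80, against 75.3% of all tested features. After median-of-ratios scaling all 80 passed as higher in transgenic leaves. Of all 22134 features tested then, 7986 were higher and 7533 lower, 70.1% in all. After quantile normalization 20 of the 80 passed as higher and 11 as lower. Of all 22182 features tested then, 7228 were higher and 8484 lower, 70.8% in all.

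**Figure D3:**
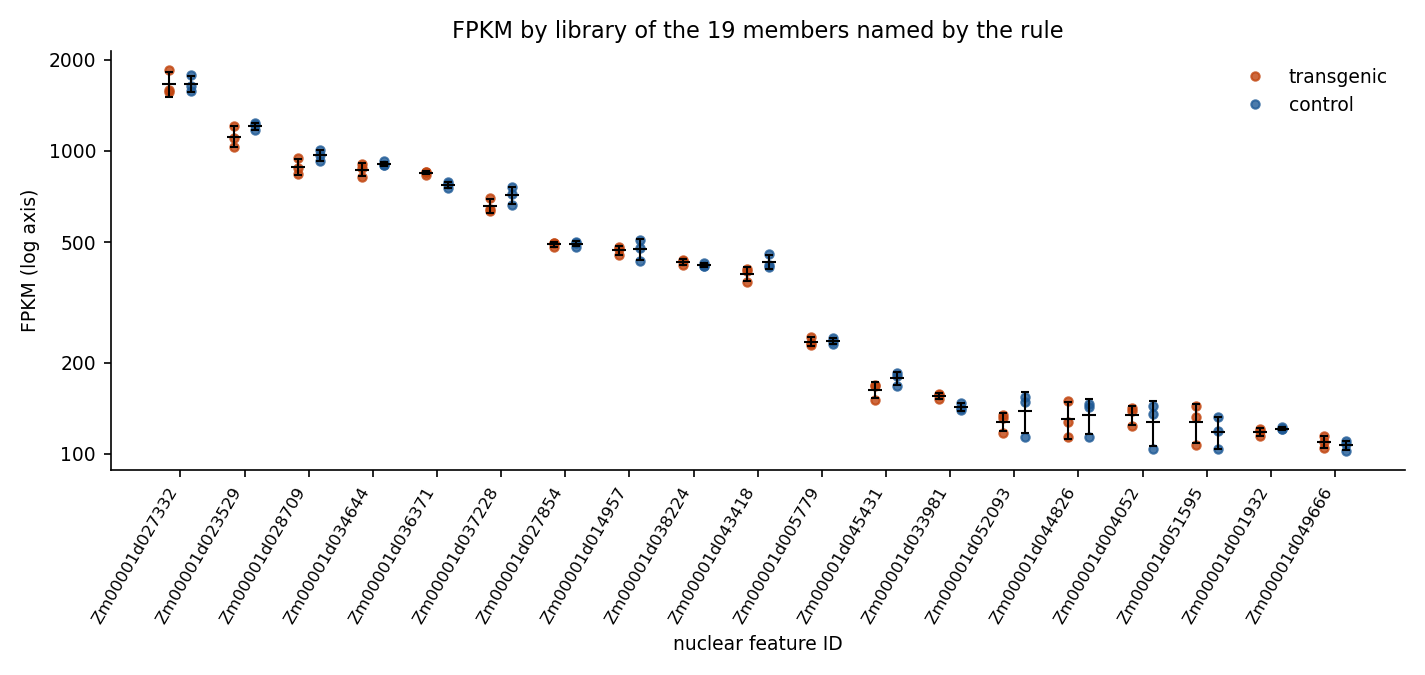
FPKM (log axis) in each library of the 19 transcripts named by rule, ordered by mean level, with transgenic libraries on the left of each pair and control libraries on the right. Points are libraries, and the black bars give the mean and SD of 3; the genotypes are apart in Zm00001d036371, Zm00001d043418 and Zm00001d033981 and overlap in the others.

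The transcripts with the ratio nearest 1, besides Zm00001d027332, were Zm00001d027854, Zm00001d005779 and Zm00001d014957. Zm00001d027854 had 497, 496 and 481 FPKM in transgenic and 483, 497 and 501 FPKM in control leaves, and its highest library was 1.041 times its lowest, the narrowest range of the 80. Its CV was 1.82% in transgenic and 1.91% in control leaves. Zm00001d005779 had 244, 229 and 232 FPKM in transgenic and 231, 236 and 242 FPKM in control leaves, a CV of 3.43% and 2.26%. Zm00001d014957 had 453, 483 and 475 FPKM in transgenic and 507, 434 and 480 FPKM in control leaves. It was close in mean but not in spread, since its CV was 3.29% in transgenic and 7.81% in control leaves.

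Low spread in both genotypes was also seen in Zm00001d038224 and Zm00001d001932. Zm00001d038224 had 434, 419 and 437 FPKM in transgenic and 416, 416 and 428 FPKM in control leaves. Zm00001d001932, at a much lower level, had 119, 121 and 115 FPKM in transgenic and 121, 121 and 122 FPKM in control leaves, a CV of 2.72% and 0.813%. At a level near 120 FPKM a tight set of libraries was therefore possible, although most transcripts at that level varied more.

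The widest spread was found in 4 transcripts with means between 123 and 133 FPKM. Zm00001d044826 had 113, 127 and 149 FPKM in transgenic and 146, 143 and 114 FPKM in control leaves. Zm00001d051595 had 143, 132 and 107 FPKM in transgenic and 119, 104 and 132 FPKM in control leaves. In both the CV was above 10% in each genotype, and a ratio of means near 1 (0.970 and 1.078) arose from libraries that differed by up to 1.317-fold and 1.383-fold. Zm00001d004052 had 142, 138 and 123.5 FPKM in transgenic and 103, 144 and 135 FPKM in control leaves, and Zm00001d052093 had 131, 134 and 118 FPKM in transgenic and 154, 114 and 148 FPKM in control leaves. In each of them 1 control library was well below the other two, replicate 1 for Zm00001d004052 and replicate 2 for Zm00001d052093, and the CV was larger in control (16.8% and 15.7%) than in transgenic leaves (7.24% and 6.98%).

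At the edges of the ratio, Zm00001d033981 had 157, 157 and 151 FPKM in transgenic and 142, 147 and 139 FPKM in control leaves, a ratio of 1.087 with no overlap of the genotypes. Zm00001d043418, at the lower edge, had 407, 402 and 371 FPKM in transgenic and 456, 413 and 421 FPKM in control leaves, a ratio of 0.914, also with no overlap. Zm00001d045431 had 151, 168 and 169 FPKM in transgenic and 168, 185 and 180 FPKM in control leaves, at a ratio of 0.914, and its genotypes overlapped narrowly. Just outside the limits were Zm00001d018973 at a ratio of 1.103 and Zm00001d026490 at 1.104 on the upper side, and Zm00001d008619 at 0.905 and Zm00001d033850 at 0.903 on the lower side. Zm00001d026490, with 264, 265 and 259 FPKM in transgenic and 239, 237 and 237 FPKM in control leaves, was left out although its replicates were close, with SDs of 3.60 FPKM in transgenic and 1.30 FPKM in control leaves. At the edge of the level, Zm00001d049666 with 115, 104 and 109 FPKM in transgenic and 102, 110 and 108 FPKM in control leaves was inside, while Zm00001d030934 and Zm00001d046378 were outside through 1 control library each, at 99.8 FPKM.

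The ratio of means does not use the spread between replicates. The minimum of 100 FPKM in every library does act on the lowest library, and so limits the spread of transcripts close to that level. Over the 80 transcripts the median CV was 5.08% in transgenic leaves (quartiles 3.90 and 6.65%) and 5.61% in control leaves (quartiles 2.98 and 8.77%). The other 743 abundant transcripts had a median CV of 4.68% in transgenic and 4.39% in control leaves. A CV under 5% was found for 40 of the 80 in transgenic and 32 in control leaves, and in 20 of them for both genotypes. Among the other abundant transcripts the share under 5% was 53.4% in transgenic and 60% in control leaves. The sets also differed in level, whose part in this was not tested. From 100 to 200 FPKM the median CV was 5.20% in transgenic and 6.36% in control leaves for 43 of the 80, and 5.02% in transgenic and 5.22% in control leaves for 201 other transcripts. From 200 to 500 FPKM it was 4.92% in transgenic and 5.32% in control leaves for 28 of the 80, and 4.61% in transgenic and 4.5% in control leaves for 321 others. At 500 FPKM or more the order of the genotypes was the other way for the 80, with 5.39% in transgenic and 4.31% in control leaves for 9 of them, and 4.53% in transgenic and 3.73% in control leaves for 221 others. Features are not replicates, so these medians carry no p-value, and a difference between the sets was not tested.

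Between the genotypes, the CV was lower in transgenic than in control leaves in 46 of the 80 (57.5%) and in 48.0% of the other abundant transcripts. The highest transgenic library was a median of 1.1 times the lowest, and the highest control library a median of 1.115 times the lowest. The largest ratio of this kind was 1.362 among transgenic libraries, in Zm00001d053239, and 1.397 among control libraries, in Zm00001d004052. The closest agreement was that of Zm00001d017526 in control leaves, with 337.55, 337.67 and 337.33 FPKM and a CV of 0.0511%, while its transgenic libraries had 328, 303 and 309 FPKM and a CV of 4.12%. In transgenic leaves the closest was Zm00001d012966, with 275, 278 and 276 FPKM and a CV of 0.458%, against 279, 304 and 289 FPKM and a CV of 4.34% in control leaves. Zm00001d053239, Zm00001d017526 and Zm00001d012966 were singled out after their values had been seen, and with 3 libraries a single very low CV says little about the next library.

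**Figure D4:**
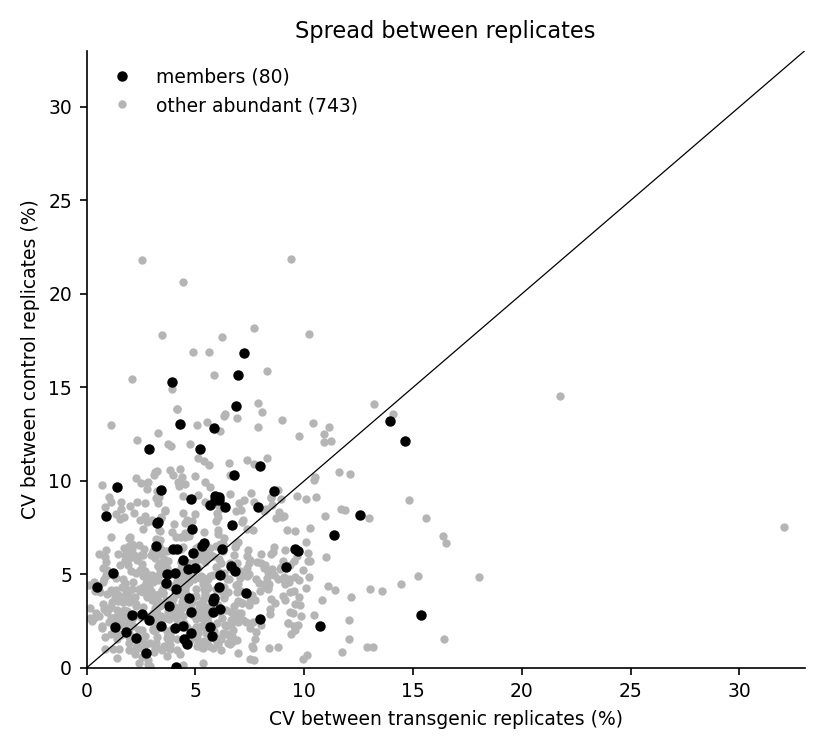
CV of FPKM between the 3 transgenic libraries (horizontal axis, %) and between the 3 control libraries (vertical axis, %), for the 80 transcripts in black and the other 743 abundant nuclear transcripts in grey, with a line of equal CV. The 80 lie within the grey cloud, and most are below 10% on both axes.

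The highest values were divided among the libraries. Among transgenic libraries, replicate 1 held the highest value for 30 of the 80, replicate 2 for 25 and replicate 3 for 25. Among control libraries the counts were 25, 33 and 22 for replicates 1, 2 and 3. The median log2 deviation of the 80 from their group mean lay between -0.02 and 0.01 in the transgenic libraries and between 0.00 and 0.02 in the control libraries, so that no library was shifted as a whole. Without transgenic replicate 3, where the largest number of low values stood (33 of 80), the median CV in transgenic leaves was 3.57%, whereas it was 4.5% without replicate 1 and 4.88% without replicate 2. Transgenic replicate 3 was also the lowest of its group for 44% of the other abundant transcripts. In control leaves the median CV was 3.95% without replicate 1, 3.68% without replicate 2 and 5.18% without replicate 3. The values over 2 libraries are not on the same footing as those over 3, and the part of the smaller number was not tested.

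With FPKM as deposited, the spread between libraries limits how closely equality can be stated. On the log2(FPKM + 1) scale the limma 95% interval of the difference between genotypes had a median half-width of 0.15 for the 80, or 1.11-fold, with a lowest of 0.09 (1.07-fold) and a highest of 0.28 (1.22-fold). When the variance trend was left out, the median half-width was 0.24, so the counts below hold for the fit with the trend. For 54 of the 80 this half-width was larger than the limit of the rule itself, 0.14 on the log2 scale. The whole interval lay within 1.1-fold for 2 of the 80, within 1.2-fold for 55 and within 1.5-fold for all 80. For 48 of them the difference of the means was smaller than 1 pooled SD of the replicates, and for 7 it was larger than 2 pooled SDs. The intervals are centred on values that the rule chose to be near 0, so they describe the precision of 3 libraries per genotype and are no test of equality. They also leave out the choice of scaling. Median-of-ratios scaling shifted the log2 ratios by 0.39, which is more than the highest half-width of 0.28.

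The rule was also applied to 2 transgenic and 2 control libraries, in each of the 9 ways of leaving out 1 library per genotype, and the ratio of the 2 libraries left out was then read. All 6 libraries come from the same set in which the 80 were chosen, so the readings describe how closely a ratio returns in another library and are no test of equality. Each time 75 to 85 transcripts met the rule. In the libraries left out, 42.9 to 64.0% of them (median 57.1%) were within 1.1-fold and 73.8 to 90.7% within 1.2-fold. The median distance between the libraries left out was 1.07 to 1.13-fold, and the largest for any transcript was 1.35 to 1.59-fold. Of the abundant transcripts that did not meet the rule each time, 3.56 to 5.84% were within 1.1-fold and 9.15 to 11.8% within 1.2-fold. Each reading sets 1 library against 1, whereas the rule used means of 2. The 9 readings share libraries and are not independent, so no p-value is given.

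An equal FPKM did not place a transcript equally in the order of nuclear transcripts by mean FPKM. A factor common to all libraries of a genotype leaves that order as it is. Zm00001d027332 ranked 89 by mean FPKM in transgenic and 55 in control leaves. Zm00001d023529 ranked 131 in transgenic and 91 in control leaves, and Zm00001d028709 ranked 166 in transgenic and 119 in control leaves. At lower levels the order turned. Zm00001d049666, the least abundant of the 80, ranked 1505 in transgenic and 1792 in control leaves, and Zm00001d051595 ranked 1274 in transgenic and 1606 in control leaves.

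Of 21 members of the set with a mean of at least 300 FPKM, a level set after the values had been seen, 19 stood farther down the ranking in transgenic leaves. Of the 59 below it, 53 stood higher up. Because the rule holds their FPKM nearly equal, each rank follows from the number of nuclear features above that level in the genotype. These counts are thus not separate observations on the members, and they describe the levels of all nuclear features. The number of nuclear features with a mean of at least 1000 FPKM was 151 in transgenic and 112 in control leaves, and that with at least 100 FPKM was 1669 in transgenic and 1933 in control leaves. The rank was within 1.1-fold between genotypes for 32 of the 80. Zm00001d038224, with a rank of 353 in transgenic and 339 in control leaves, was close in level, in spread and in rank.

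**Figure D5:**
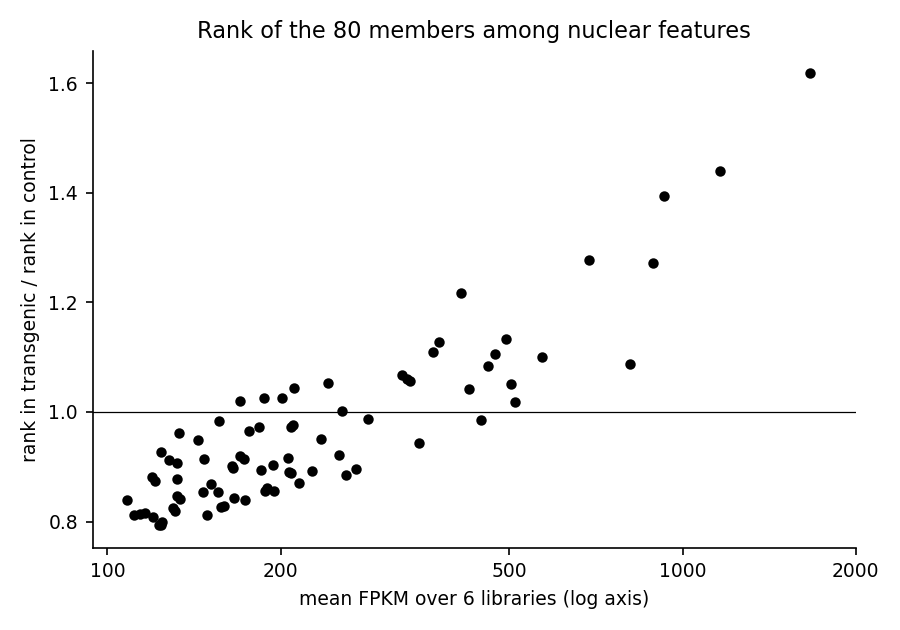
Rank by mean FPKM among all nuclear features in transgenic leaves divided by the rank in control leaves (vertical axis), for each of the 80 transcripts by its mean FPKM over 6 libraries (horizontal axis, log scale). Ratios run between 0.793 and 1.62, and points above 1 are transcripts that stood farther down the order in transgenic leaves, mostly those of 300 FPKM or more.

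Across the 80 transcripts, log2 FPKM correlated between libraries with a Pearson r of 0.985 to 0.992 within transgenic, 0.983 to 0.988 within control, and 0.984 to 0.990 between a transgenic and a control library. For the other 743 abundant transcripts r was 0.995 to 0.998 within transgenic, 0.995 to 0.996 within control, and 0.258 to 0.273 between genotypes. The 80 cover a narrower range of levels than the others, and the rule fixes their r between genotypes, so these coefficients are descriptions across transcripts with no p-value. One pair of the 80 had consecutive IDs. Zm00001d040659 had 385, 352 and 338 FPKM in transgenic and 359, 354 and 297 FPKM in control leaves, and Zm00001d040660 had 163, 176 and 158 FPKM in transgenic and 154, 180 and 156 FPKM in control leaves. Their order of libraries was not alike, and whether they are neighbours in the genome could not be looked up.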

How the data were processed

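Each of 6 leaf libraries has 1 file of FPKM values, as deposited, with 2 decimals and 33953 features. Library construction used a SMARTER mRNA kit and 1.3 µg of total RNA, per the labels. Aligner, counting method, annotation and strand setting were not given in the sources used here. Per the submitters' processing notes the builds were GRCm38 and mm10, which are mouse genomes and cannot belong to maize IDs, so no coordinates are given. Groups and replicate numbers come from the labels.

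The 80 transcripts, the lists and the tests were chosen with earlier results of these data known. No transcript could be assigned to a gene list, since the nuclear IDs had no entry in the gene table used here. Named were the 6 most abundant, the 4 with the lowest and the 4 with the highest pooled CV (root mean square of the CVs of both genotypes), the 4 with a ratio nearest 1, and those at the limits. The spread is the CV of FPKM over 3 libraries. The genotypes were compared on log2(FPKM + 1) with limma 3.58.1 in R 4.3.3 (lmFit, eBayes with trend, two-sided, Benjamini-Hochberg adjustment, threshold 0.05) over the 22200 features that averaged at least 1 FPKM; 11753 were left out. The methods were tested on simulated data. Those for the comparison had few changed features, and those for the rule had none set near the ratio limits. How the methods do on data like these was therefore not tested. Alternatives covered scaling, ratio limit, minimum level, pseudocount, filter, variance model, replicate block and left-out libraries. Without read counts, no counting intervals are given.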

Additional observations from a re-analysis of the deposited data

How the results depend on the processing

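The number of transcripts meeting the rule, 80, was 115 with median-of-ratios scaling, 81 with quantile normalization, 61 with a total of 1000000 per library and 72 with group medians. It was 39, 147 and 316 with ratio limits of 0.07, 0.26 and 0.58 on the log2 scale, and 191 and 28 with a minimum of 50 and 200 FPKM, since the limits themselves admit more or fewer. Leaving out libraries gave 74 to 85. The counts of 5996 higher and 10199 lower features stayed within 1.5 times under all settings of the comparison, but the lower share of calls, 63.0%, was 48.5% after median-of-ratios scaling and 54.0% after quantile normalization. With any 1 library absent there were 5358 to 5988 higher and 9593 to 9998 lower features, and 0 to 2 higher and 0 to 4 lower among the 80. With the replicate number as a block, 5935 were higher and 10087 lower. Deviations of same-numbered libraries correlated by only 0.006, -0.001 and 0.015, so no pairing was assumed. The median CV of the 80 was 3.57 to 4.88% in transgenic and 3.68 to 5.18% in control leaves when 1 library was left out, and 6.42% in control leaves with quantile normalization; the cause of that change was not tested. Of 285 values of the 19 named transcripts, 248 moved by less than 1 SD of the replicates and 36 by more. All 36 were with median-of-ratios scaling or quantile normalization. The other 1 was the log2 difference of Zm00001d036371, the only named transcript called as deposited, which reversed to -0.11 with quantile normalization. The filter, the variance model and the replicate block cannot change a log2 difference, and the pseudocount hardly changes it at these levels. Much of the 248 was therefore fixed in advance, and nothing is read from that count. Counting transcripts with no call as well, the sign turned in 35 of the 285 values, 12 of 19 with median-of-ratios scaling, 7 of 19 with quantile normalization and 16 of 247 under the other settings. Of these, 12, 2 and 0 then passed the threshold. Among them Zm00001d023529 stood at 0.27 and Zm00001d028709 at 0.26 with median-of-ratios scaling (limma, adjusted p = 0.00616 and 0.00237), and Zm00001d027332 at -0.73 with quantile normalization (limma, adjusted p = 1.51e-05). Depth is unknown, so counting error at 100 FPKM could not be set apart from the spread between libraries.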
